A study of Mus musculus with 30 samples.

Results

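Splicing events that followed constitutive inclusion of Puf60 exon 5 were collected in mouse CGR8 embryonic stem cells (ESC) and in embryoid bodies at day 8 (EB8), and were then described in libraries that had no part in choosing them. Puf60 is a splicing factor related to U2AF that binds pyrimidine-rich tracts ahead of 3' splice sites and helps the U2 snRNP to be recruited there. Its exon 5 is an alternative coding exon, so a cell holds a mixture of Puf60 proteins with and without the segment it encodes. 3' splice sites whose tracts are short or interrupted are the ones known to depend most on such auxiliary factors.

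An event entered the set when its mean percent spliced in (PSI, the share of transcripts that include the alternative sequence) in the line with constitutive exon 5 on both alleles lay at least 10 points from the parental line, in the same direction, at both ESC and EB8. At least 20 reads were required in each of the 8 libraries compared. The events were thus chosen by their PSI in the ESC and EB8 libraries of these lines. The rule found 496 events in 422 genes among 265425 events with enough reads, and 661327 rows in all. Exon 5 of Puf60 is one of them and was kept apart, which left 495 events in 421 genes: 255 with higher PSI and 240 with lower PSI. For retained introns PSI is the share of unspliced transcripts, and for alternative splice sites it is the share that use the longer form named.

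The groups were the parental wild type (WTprtl, here WT), a line homozygous for constitutive exon 5 (Puf60.pEx5.HOM, here HOM), a line with 1 such allele (Puf60.pEx5.HET, here HET), a line homozygous for a deletion of exon 5 (Puf60.mEx5.HOM, here mEx5) and a line with a deletion in the RNA-binding protein gene Rbm38 (Rbm38KO). Each was sampled as ESC, as EB8 after retinoic acid, and as neurons after 7 days in vitro (DIV7), with 2 libraries per group, 30 libraries in all. All lines derive from CGR8, and the edited ones are clonal lines made with CRISPR-Cas9. The labels do not tie a library to a clone, so the spread behind each p-value is that of these libraries and may be technical, and a property of a clone other than its edit cannot be told apart from the edit.

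Libraries held 23204150 to 38571969 spliced reads. Neuron markers summed to 175 to 267 RPM (spliced reads scaled to a common library total) at ESC and 3890 to 4750 at DIV7, and pluripotency markers to 3370 to 4550 and 38.7 to 241. In the authors' deposited table Rbm38 stood at 79.5 RPKM in WT ESC and 5.27 RPKM in Rbm38KO ESC. Puf60 RNA was lowest in mEx5 at each stage, at 106, 110 and 78 RPKM at ESC, EB8 and DIV7. WT stood at 147, 137 and 105, HOM at 148, 124 and 110 and HET at 145, 124 and 106. Rbm38KO stood at 148, 134 and 109. In mEx5 the lower level and the missing exon cannot be told apart. Exon 5 of Puf60 (chr15:76074607-76074657 in mm10, 51 nt, coding) had a PSI of 22.4 and 20.7% in the 2 WT ESC libraries and 99.0 and 98.3% in HOM. HET stood between them, at 49.3 and 49.2%. The line labelled as lacking the exon still showed 7.49 and 10% at ESC and 9.83 and 12.9% at DIV7.

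The stretches between competing acceptors of 3 members are printed first, as they hold the sequence that alternative 3' splice sites add or leave out. In these extensions the capitals mark the AG of the downstream acceptor, so each run is the sequence that a spliceosome skips when it uses that acceptor and includes when it uses the upstream one. Sequences were read from GENCODE transcripts (GRCm38) on the strand of the gene.
Tial1 extension: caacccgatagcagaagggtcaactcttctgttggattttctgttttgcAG
Rpgr extension: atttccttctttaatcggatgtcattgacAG
Celf1 extension: ctttatttgcAG

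The events with higher and lower PSI were of different kinds. Of the 255 higher events 124 were cassette exons, 81 retained introns, 36 alternative 3' splice sites, 13 alternative 5' splice sites and 1 a microexon of at most 27 nt. The 240 lower events held 187 cassette exons and only 8 retained introns, with 33 alternative 3' splice sites, 10 alternative 5' splice sites and 2 microexons. Retained introns thus made up 31.8% of the higher events, 3.33% of the lower ones and 30.9% of the 14188 other events with a mean PSI of 5 to 95% in the same libraries. Cassette exons made up 48.6%, 77.9% and 35.6% of these sets. These shares are descriptions, with no test.

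The acceptors of the cassette exons differed in composition between the directions. The bases ahead of an exon could be read where an annotated transcript covers them, which was the case for 40 higher exons, 46 lower exons and 1247 other exons. In the 18 bases before the AG, T made up a median of 27.8% for higher exons, 50% for lower exons and 38.9% for the others. C and T together made up 66.7%, 75% and 72.2%. The 3 members per direction with the largest differences among coding exons that could be read are shown, with every T of these 18 bases in capitals. Exons on a chromosome that is not named here were left out. Exons of Pstk (kinase of the selenocysteine tRNA pathway), Daglb (diacylglycerol lipase) and Rasa2 (Ras GTPase-activating protein) had lower PSI in HOM, and those of Bag6 (chaperone), Sirt2 (deacetylase) and Ndrg2 had higher PSI.
Pstk acceptor: TTTgTTgTTgTgTTTTgTag
Daglb acceptor: gcTggTTTcTTgTcTTccag
Rasa2 acceptor: cTgTaTTTgTTTTcTcaTag
Bag6 acceptor: TgcacgccgTcgcccaccag
Sirt2 acceptor: TcTgcTccccTccTccccag
Ndrg2 acceptor: TgTgTgTcgTgTcTcTccag
The Pstk, Daglb and Rasa2 acceptors held 13, 9 and 11 T, and those of Bag6, Sirt2 and Ndrg2 held 2, 5 and 8. The ranges of the sets overlap, and Ndrg2 lies close to Daglb. Acceptors that no annotated transcript covers are not described.

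Other features also differed between the directions. The exons themselves were richer in G and C when higher (median 54.2%) than when lower (47.4%), against 50.2% for other exons. Of the higher cassette exons 62.9% had a length that is a multiple of 3, which keeps the reading frame, against 47.1% of the lower and 45.8% of the other exons. Within fully coding exons the shares were 70.5%, 54% and 50.2%. The competing acceptors of alternative 3' splice sites lay a median of 37 nt apart for higher members and 77 nt for lower members, against 14 nt for other events. Acceptors 3 nt apart made up 8.33%, 6.06% and 26.9%.

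**Figure D1:**
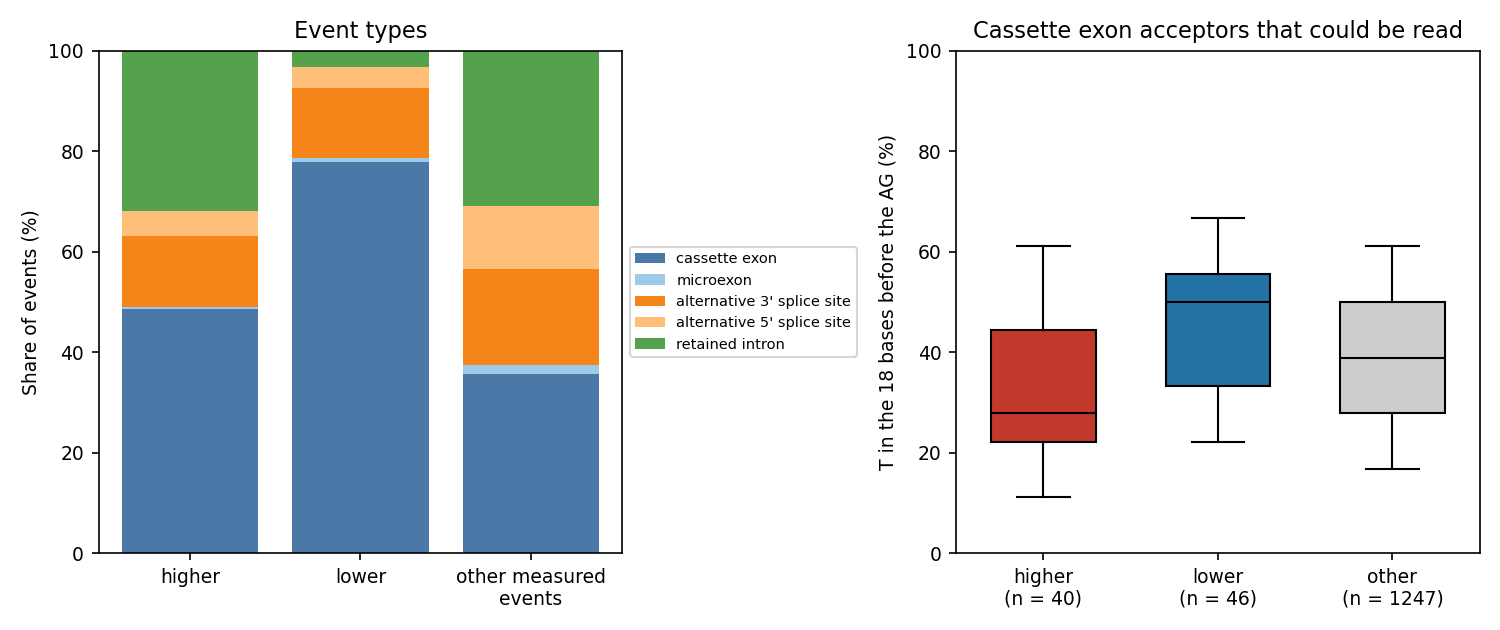
Left, share of events (%) by type for the 255 higher events, the 240 lower events and 14188 other measured events. Right, share of T (%) in the 18 bases before the AG of cassette exons that could be read, where boxes span the quartiles, lines are medians and whiskers run from the 5th to the 95th percentile. Lower events are mostly cassette exons (77.9%), and median T content was 50% for lower and 27.8% for higher exons.

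The sizes at ESC and EB8 follow from the rule and are given without a test. The median difference in the members' direction was 15.3 points at ESC and 15.7 points at EB8. The 4 libraries of HOM and WT did not overlap at both stages for 455 of the 495 events, and they overlapped at one stage or both for 40. Of all events tested, 12.2% at ESC and 11.5% at EB8 lay at least 10 points apart without overlap. In 11 events the 2 HOM libraries lay over 30 points apart at ESC or EB8. Sirt3, a mitochondrial deacetylase, is one: its 86-nt acceptor extension stood at 20.9 and 90.5% in the 2 HOM ESC libraries at 10.6 and 18% in WT, and at 24.5 and 81.8% in HET. Its large mean difference therefore rests on 1 HOM library per stage (21.5 and 95.7% at EB8), and at DIV7 HOM stood at 24.0 and 11.2% and WT at 13.5 and 9.95%. Just inside the threshold lay events of 4932438A13Rik (26.05 and 10.02 points at ESC and EB8), Rad9b (-10.02 and -10.97) and Trim26 (10.98 and 10.03). Just outside lay those of Pikfyve (9.98 and 11.31), Vcan (-9.98 and -11.88) and Ddhd2 (-9.97 and -12.58), the last of which stood at -14.93 points at DIV7.

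Markers of other cell types moved with HOM at the stages that chose the events. At ESC smooth and striated actin markers summed to 24.7 to 27.4 RPM in HOM and 150 to 251 in WT, and 4 of 4 genes passed the authors' FDR of 0.05 as lower. Fibroblast and matrix markers summed to 11.4 to 29.7 against 112 to 139, with 3 of 5 genes lower and Lum at 0 in both, and mesoderm markers to 5.23 to 5.55 against 17 to 27.3, with 2 of 4 lower. Pluripotency markers were at 4400 to 4550 in HOM and 3700 to 3860 in WT, with 0 of 7 passing. At EB8 fibroblast and matrix markers stood at 77.2 to 92.7 and 169 to 334, with 2 of 5 lower, beside the neuron markers given below. The part of these shifts in the choice of the events was not tested.

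Members with large differences in each direction of each type give the range of genes involved. Among cassette exons that were lower, the mean differences at ESC and EB8 were -44.4 and -41.6 points in Pstk and -31.1 and -49.6 points in Brwd1, a bromodomain protein. Among those that were higher they were 34.6 and 17.4 points in Slc9a5, a sodium-proton exchanger, 31.3 and 21.2 points in Dpf1, a subunit of neuronal BAF chromatin remodelling complexes, and 22.1 and 34.4 points in Dscc1, part of an alternative clamp loader. The retained introns led by Sept8, a septin, Arhgap1, a GTPase-activating protein, and Ift20, an intraflagellar transport subunit, were higher by 39.9 and 41.4, 31.9 and 36.9, and 29.8 and 38.3 points. Lower retained introns were smaller in effect, led by Yipf2 (-18.1 and -16.7 points), Csf2ra and Cux1. Alternative 5' splice sites were led by Man2a1, a Golgi mannosidase (39.3 and 31.6 points), Amotl1 and Map4k5 among those that were higher, and by a competing form of Amotl1 (-32.9 and -18.7 points), Hexim2 and Fbxo44 among those that were lower.

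DIV7 neurons, which the rule does not use, answer whether the events recur in new libraries of the same lines. Of the 495 events 210 (42.4%) lay at least 10 points apart between HOM and WT in the members' direction, and 8 lay at least 10 points in the opposite one. Of all 265125 events with enough reads for the rule and a DIV7 value, most of them constitutive, 0.942% lay 10 points apart in either direction. Events that passed 10 points at ESC but were not members did so in the same direction at DIV7 in 122 of 1089 cases (11.2%), and those that passed at EB8 in 223 of 1183 (18.9%). The median DIV7 difference in the members' direction was 8.2 points over the 495 events and smaller than at ESC and EB8, whose medians the selection itself raises. Alternative 3' splice sites recurred in 61.1% of higher and 60.6% of lower members, cassette exons in 35.5% and 46.5%, and higher retained introns in 32.1%. Competing forms of the same acceptor event can be members in both directions, as in Sept8 and Sirt3. Such forms share reads, so the higher and lower shares of acceptors are not independent.

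Across all events tested at DIV7 (at least 10 reads in every DIV7 library and a mean PSI of 5 to 95%), limma on read-weighted log2 inclusion ratios called 1.73%. A call needed an adjusted p (Benjamini-Hochberg) below 0.05 together with a difference of 10 points or more. Of the 495 members 417 were tested, and 81 in 72 genes were called, 28 higher and 53 lower, each in the members' direction. Cassette exons that were lower gave 45 of these calls, higher cassette exons 13, alternative 3' splice sites 12 and higher retained introns 8. The 12 include both competing forms of Sept8 and of Glyr1, which share reads. Libraries of HOM and WT lay at least 10 points apart without overlap for 177 tested members (42.4%), against 10.8% of all events tested. Of the 177 members 175 lay in the members' direction. Of the members tested 19 entered only through the HOM libraries, as the other 8 DIV7 libraries had a mean PSI outside 5 to 95%, and 11 of these were called. A member that entered this way had to differ in HOM. Without the 19, 70 of 398 members were called. With equal weights for all libraries no member was called (151 of 417 at an unadjusted p under 0.05), and with no limit on PSI 3 were, so the adjusted calls rest on the weighting, while the non-overlapping count does not use it. Without WT replicate A or B 46 were called, and without HOM replicate A 49.

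**Figure D2:**
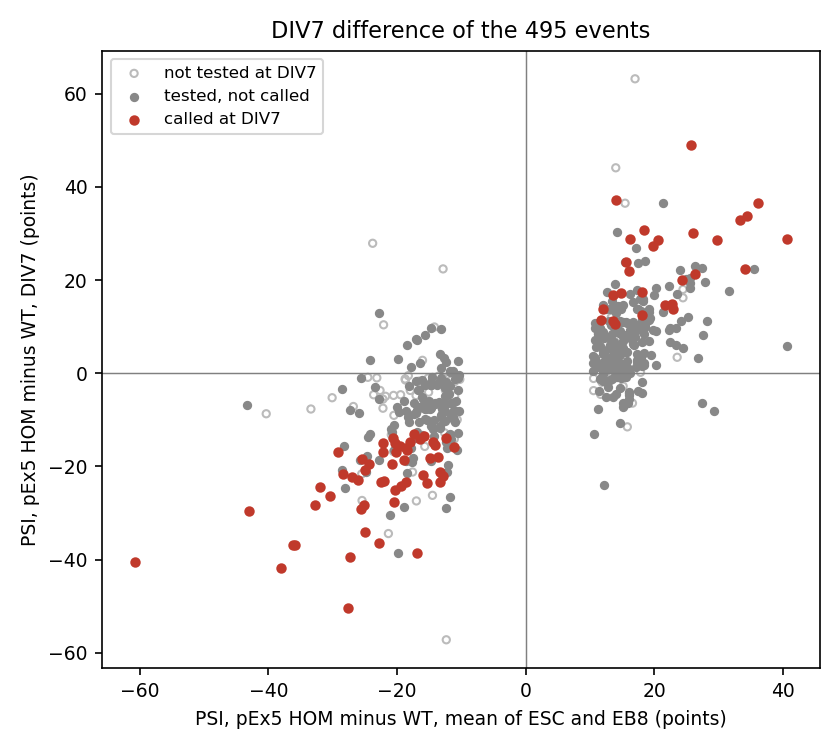
PSI difference between HOM and WT (points) for 495 events: mean of ESC and EB8, which chose the events (horizontal axis), against DIV7 (vertical axis). Red points are the 81 events called at DIV7, all at the lower left or upper right, gray points were tested and not called, and open circles were not tested.

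Cassette exons lost at all 3 stages included exons that are almost constitutive in every other line. The 84-nt exon of Daglb (chr5:143487148-143487231) stood at 100.0 and 100.0% in WT and 66.1 and 75% in HOM at ESC, and at 98.2 and 99.0% against 52.7 and 51.1% at EB8. At DIV7 its PSI was 99.0 and 95.6% in WT and 58.8 and 51.9% in HOM, a difference of -41.9 points. HOM libraries were low at each stage and did not overlap WT, and HET stood at 90.0 and 98.9% at DIV7. The 82-nt exon of Trp53i11 was at 97.4 and 97.2% in WT and 52.9 and 64.7% in HOM at DIV7, and the 60-nt exon of Fam183b at 90.4 and 92.6% against 52.4 and 30.0%. In both genes the groups did not overlap. The exons of Daglb, Trp53i11 and Fam183b are among the 11 that entered the test only through HOM (the other DIV7 libraries had mean PSI values of 96.5, 96.0 and 96.1%), so their differences are given without a test. Further large falls at DIV7 were in exons of Odf2l (-39.4 points), Fam57a (-36.9 points) and the zinc finger gene Zbtb49 (-36.4 points), beside an acceptor form of Sept8 that is given with its partner below.

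Pstk showed a graded pattern. Its 142-nt exon stood at 55.2 and 59.4% in WT, 48.8 and 46.1% in HET and 26.1 and 29.6% in HOM at DIV7, with mEx5 highest at 69.5 and 72.2%. HOM against WT gave a fall of 1.8 ± 0.24 in the log2 ratio (adjusted p = 0.000367), and HET against mEx5 an adjusted p of 0.00775. The 117-nt exon of Pcm1, the scaffold of centriolar satellites, had the same order: 46.4 and 43.5% in HOM, 61.7 and 61.9% in HET, 69.8 and 68.9% in WT and 84.7 and 87.6% in mEx5. No 2 of these 4 groups overlapped. Against WT the HOM libraries fell by 1.46 ± 0.2 (adjusted p = 0.000425), and mEx5 was higher than Rbm38KO (72.4 and 69.8%, adjusted p = 0.00966).

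**Figure D3:**
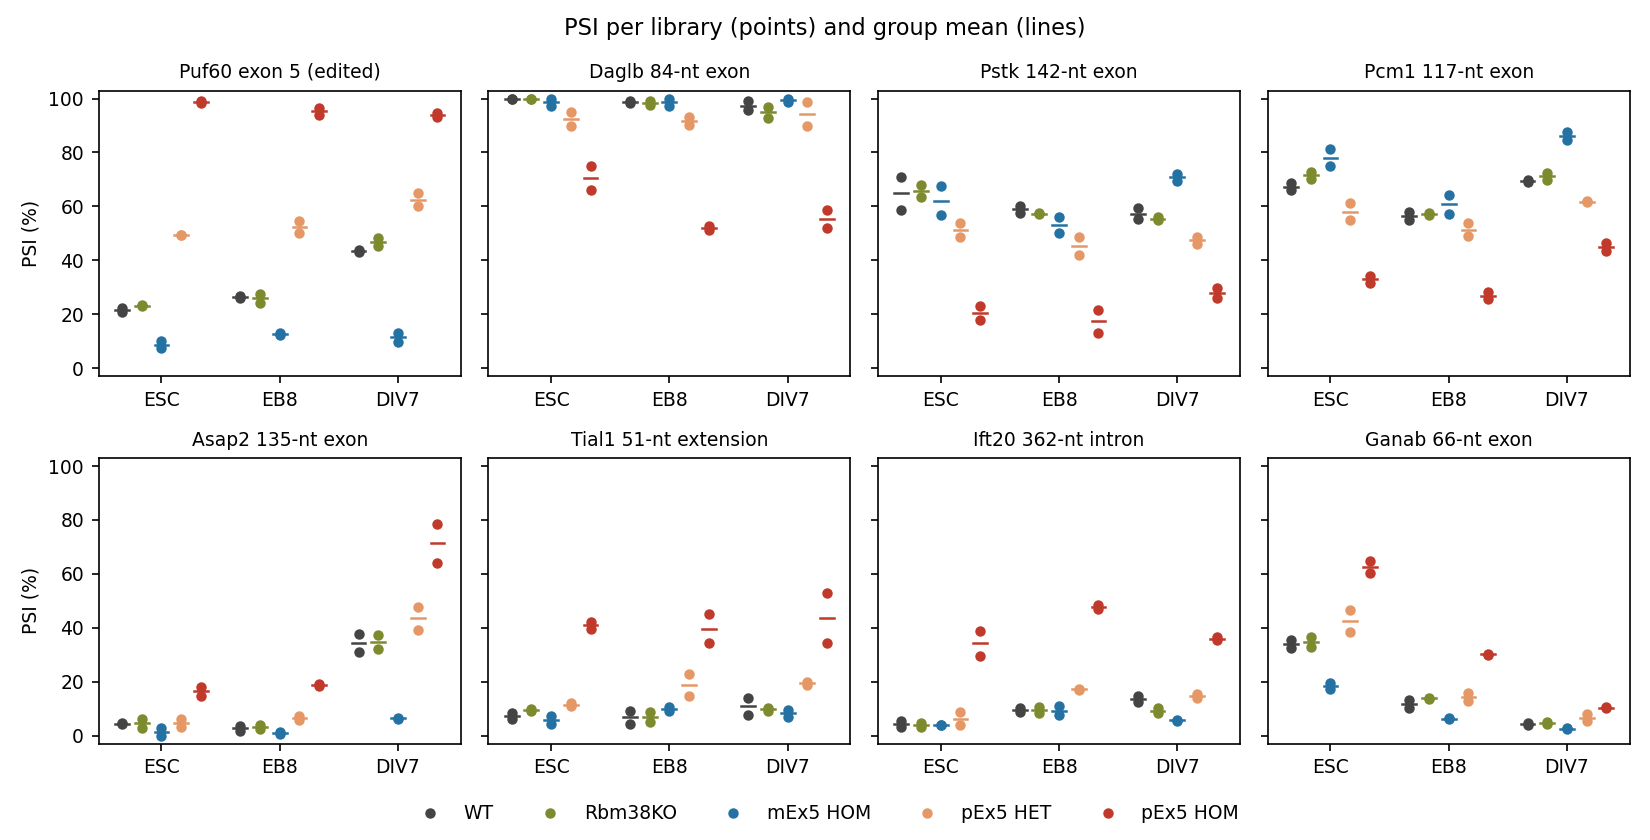
PSI (%) of 8 events in each of the 30 libraries (points) with group means (short lines), by stage and line. Exon 5 of Puf60 shows the edit itself, the Daglb exon is lowest in HOM, and the exons of Pcm1 and Asap2 at DIV7 are ordered with mEx5 and HOM at opposite ends.

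Exons and acceptor extensions gained in HOM were led at DIV7 by the 135-nt coding exon of Asap2, an Arf GTPase-activating protein. It stood at 30.9 and 37.6% in WT, 64.2 and 78.4% in HOM, 47.8 and 39.3% in HET and 6.23 and 6.48% in mEx5. HOM rose by 2.19 ± 0.3 in the log2 ratio against WT (adjusted p = 0.000367), and mEx5 fell against Rbm38KO (37.2 and 32.1%, adjusted p = 0.00738). At ESC and EB8 the exon was at 0.0 to 7.1% in the 4 lines other than HOM. The 71-nt exon of Slc9a5 rose from 51.2 and 58.5% to 83.0 and 86.9% (adjusted p = 0.000148), with Rbm38KO at 74.8 and 67.5%. The 124-nt exon of Srek1, a gene for an SR-like splicing regulator, stood at 22.8 and 14.9% in WT, 50 and 45.2% in HOM and 1.66 and 5.98% in mEx5, a rise of 28.8 points in HOM (adjusted p = 0.0103).

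The extension of Tial1 lies between acceptors of an exon of an RNA-binding protein that itself favours U-rich RNA, and its sequence is printed above. It was included in 13.9 and 7.78% of transcripts in WT DIV7 libraries and in 52.9 and 34.3% in HOM, a rise of 2.51 ± 0.45 in the log2 ratio (adjusted p = 0.0042). ESC gave 8.5 and 6.03% against 42.1 and 39.7%, and HET 10.9 and 12.1%. In Sept8 the longest of 3 acceptor forms rose from 38.8 and 31.5% to 69.6 and 73.8% at DIV7 while the middle form fell from 60.7 and 66.8% to 29.5 and 24.3% (adjusted p = 0.000148 for each). Both forms and the intron beside them share reads, so they count as 1 change in the gene. At ESC the longest form stood at 66 and 58.2% in mEx5 as well, above WT (47.1 and 43.1%) and below HOM (84.2 and 86.0%). The 31-nt extension in Rpgr, a gene of the photoreceptor cilium, stood at 70.0 and 58.4% in WT, 94.7 and 88.6% in HOM and 61.6 and 51.6% in mEx5 at DIV7 (adjusted p = 0.0123 for HOM against WT).

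Among retained introns the largest DIV7 rise was in Nfrkb, which encodes a subunit of the INO80 chromatin remodeller. Its 538-nt intron was retained in 20.5 and 34.7% of WT and 80.0 and 73.0% of HOM transcripts (adjusted p = 0.00399). Introns of Arhgap1 (33.8 points, adjusted p = 0.0109) and Fam213a (30.8 points, adjusted p = 5.45e-05) rose too. The 362-nt intron of Ift20 (chr11:78540999-78541360) was at 14.7 and 12.4% in WT and 35.6 and 36.4% in HOM at DIV7, a rise of 1.84 ± 0.26 in the log2 ratio (adjusted p = 0.000522). Ift20 RNA was lower in HOM at each stage in the authors' deposited table, with log2 fold changes of -2.36, -1.63 and -1.48 and FDR values of 2.29e-12, 2.86e-06 and 6.19e-05 at ESC, EB8 and DIV7.

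Markers of several cell types moved with the HOM line at DIV7 as well. Pluripotency markers summed to 165 to 241 RPM in HOM and 51.9 to 60.4 in WT, and 6 of the 7 genes passed the authors' FDR of 0.05 as higher. Astrocyte markers summed to 428 to 715 against 1190 to 1300, with 4 of 5 genes lower, fibroblast and matrix markers to 273 to 441 against 653 to 2260, with 2 of 5 lower, and endoderm markers to 1.63 to 2.72 against 19 to 49.5, with 4 of 5 lower. Neuron markers were at 3890 to 4310 and 4160 to 4630. None of the genes of these lists was at 0 in either group. The part of these shifts in the DIV7 differences was not tested, and in bulk RNA fewer cells of a type and less RNA per cell cannot be told apart.

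For the other edited lines Rbm38KO served as the control, because the WT libraries of ESC and EB8 chose the events and a comparison with them is drawn toward the members' direction by that choice. Rbm38KO itself lay 1.65 and 2.3 points from WT in that direction at ESC and EB8, and -0.18 points at DIV7, where WT was not used. A part of the Rbm38 deletion in these differences was not tested. Against Rbm38KO the median difference of HOM in the members' direction was 8.1 points at DIV7. At ESC and EB8 it was 13.6 and 13.4 points, but the HOM libraries of these stages chose the events too, so with either control these medians are set by the rule and are not to be read against those of the other lines. HET gave 3.12, 1.94 and 1.54 points at ESC, EB8 and DIV7, and mEx5 gave -1.57, -2.95 and -2.38 points. The medians of HET are thus small and in the direction of HOM, and those of mEx5 lie on the opposite side.

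**Figure D4:**
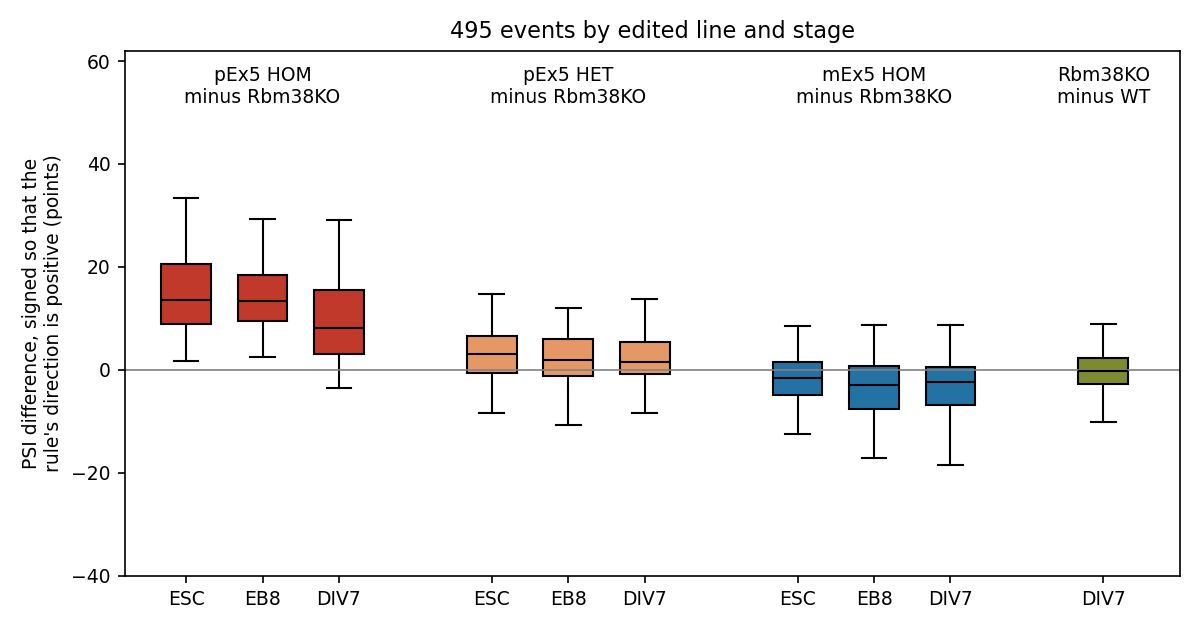
PSI differences (points) of the 495 events, signed so that the direction in which they were chosen is positive, by line and stage. Boxes span the quartiles, lines are medians and whiskers run from the 5th to the 95th percentile. Against Rbm38KO medians were 13.6, 13.4 and 8.1 for HOM, whose ESC and EB8 libraries chose the events and so set the first 2 values, 3.12, 1.94 and 1.54 for HET and -1.57, -2.95 and -2.38 for mEx5, and -0.18 for Rbm38KO against WT at DIV7.

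Single events rarely passed the test in HET. Against Rbm38KO, limma called 0 members at ESC (0.0111% of all events tested, 71 members at an unadjusted p under 0.05), 1 at EB8 (0.263%) and 0 at DIV7 (0.009%, 46 members at an unadjusted p under 0.05). The 1 call, the 78-nt exon of Sbf1, a myotubularin-related phosphatase gene, was lower in HET (59.1 and 60.0%) than in Rbm38KO (74.9 and 77.1%) and so opposite to HOM (81.4 and 86.2%). It was not called without HET replicate A or Rbm38KO replicate B. Without HET replicate B 5 members were called, 3 in the members' direction and 2 opposite, so the calls give no single direction for HET at EB8. Libraries lay at least 10 points apart without overlap for 60 members at ESC, 68 at EB8 and 44 at DIV7. These were 12.3%, 13.9% and 10.6% of the members tested, against 6.37%, 7.32% and 6.09% of all events in either direction. Of them 50, 42 and 39 lay in the members' direction.

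In mEx5 the calls ran against the members' direction. Of 24 members called at EB8 against Rbm38KO (2.5% of all events were) and 4 at DIV7 (0.072%), each lay opposite to HOM. At ESC none was called (0.00556% of all events, 57 members at an unadjusted p under 0.05). The largest at EB8 were Magi3, Sbf1, Sh2b1 and Pqlc1. The 100-nt exon of Sh2b1, an adaptor of receptor tyrosine kinases, was at 36.8 and 39.2% in mEx5, 60.3 and 68.7% in Rbm38KO and 75.3 and 80.5% in HOM (adjusted p = 0.000214 for mEx5 against Rbm38KO). At DIV7 the events were competing acceptor forms of Dhdds, the cis-prenyltransferase of dolichol synthesis, and the exons of Asap2 and Pcm1. Members 10 points apart without overlap numbered 50 at ESC, 82 at EB8 and 77 at DIV7, of which 35, 73 and 67 were opposite to HOM. They made up 10.3%, 16.7% and 18.5% of the members tested, against 6.31%, 9.63% and 6.82% of all events in either direction. The EB8 count of 24 was 6 without Rbm38KO replicate B, 12 and 11 without mEx5 replicates A and B, and 0 with equal weights (76 at an unadjusted p under 0.05). The DIV7 count of 4 was 0 with equal weights (68 at an unadjusted p under 0.05), 1 without mEx5 replicate B or Rbm38KO replicate B and 2 without Rbm38KO replicate A.

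Neuron markers differed between the lines at EB8. They summed to 2030 to 2270 RPM in mEx5, 940 to 1260 in Rbm38KO and 837 to 1030 in HOM. HET stood at 1760 to 1900 and WT at 1350 to 1510. In these markers HET and mEx5 lay above Rbm38KO. The median member difference of HET from Rbm38KO at EB8 was 1.94 points in the members' direction, and its calls there gave no single direction. Exons called in mEx5 at EB8 include several that change between stages. Sbf1 stood at 77.9 and 78.6% in Rbm38KO ESC and 15.2 and 20.2% in Rbm38KO DIV7, and the 39-nt exon of Elavl2, a neuronal ELAV protein, at 24.3 and 17.2% and at 98.9 and 98.9%. At EB8 the Elavl2 exon was at 35.6 and 40.4% in HOM, 64.8 and 64.9% in Rbm38KO, 77.2 and 77.1% in HET and 87.8 and 87.5% in mEx5 (adjusted p = 4.59e-05 for mEx5 against Rbm38KO), and at DIV7 all lines stood between 97.0 and 99.0%. The part of the marker shift in these EB8 values was not tested. At DIV7 neuron markers lay at 4510 to 4750 in mEx5 and 4480 to 4610 in Rbm38KO.

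The comparison of HET with mEx5 uses none of the libraries of the rule and sets 1 constitutive allele against deletion of the exon. Puf60 RNA was also lower in mEx5, as given above. It called 2 members at ESC, 16 at EB8 and 18 at DIV7 (0.0389%, 0.305% and 0.396% of all events tested), and each of them lay in the members' direction. Median differences were 4.36, 5.33 and 5.24 points over the members tested. Members 10 points apart without overlap numbered 92, 101 and 100, of which 86, 95 and 98 lay in the members' direction. They made up 18.9%, 20.6% and 24.0% of the members tested, against 7.22%, 7.87% and 8.22% of all events in either direction. The 66-nt exon of Ganab, the catalytic subunit of endoplasmic reticulum glucosidase II, was at 38.6 and 46.6% in HET and 17.3 and 19.4% in mEx5 at ESC (adjusted p = 0.00232), with HOM at 60.2 and 64.6% and WT at 32.6 and 35.5%. The 78-nt exon of Rtel1, a helicase that maintains telomeres, was at 28.3 and 36.2% in HET and 69.8 and 67.9% in mEx5 at DIV7 (adjusted p = 0.00583), against 24.2 and 17.2% in HOM and 55.9 and 53.4% in WT.

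Foxp1, a transcription factor with a form particular to pluripotent cells, held neighbouring exons that moved in opposite directions. At ESC the 122-nt exon was at 77.7 and 81.2% in WT, 50.8 and 46.2% in HOM, 71.1 and 66.9% in HET and 88.6 and 84.4% in mEx5 (adjusted p = 0.0323 for HET against mEx5). The 170-nt exon 3' of it was at 17.6 and 15.3% in WT, 48.4 and 46.7% in HOM, 25.2 and 33.5% in HET and 11.1 and 14.4% in mEx5. The exons are not independent of each other, and at DIV7 they stood at 93.8% or above and at 4.69% or below in all lines. Of the events called between HET and mEx5 at EB8, the 72-nt exon of Eif4enif1, which transports the cap-binding protein eIF4E, was at 64.5 and 60.1% in HET and 38.2 and 40.6% in mEx5 (adjusted p = 0.002), and at DIV7 at 59.5 and 58.2% and at 36.1 and 38.2%. Its HOM and WT libraries did not separate at DIV7 (58.6 and 60.7% against 58.3 and 63.4%).

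At DIV7, where WT is free of the rule, every line can be set beside it, with the WT libraries shared by all of them. Median differences in the members' direction were 8.2 points for HOM, 1.24 for HET, -2.72 for mEx5 and -0.18 for Rbm38KO. In the fit, HET and Rbm38KO had 0 members called (50 and 30 at an unadjusted p under 0.05), against 0.018% and 0.0% of all events, and mEx5 had 6, all opposite to HOM, against 0.112%. In the authors' deposited table, whose criteria no header or label states, 396 members carry a DIV7 call for HOM and 141 of them are TRUE (35.6%), against 1.58% of all events. The shares were 4.8% for HET (1.08% of all events), 14% for mEx5 (1.16%) and 2.53% for Rbm38KO (0.954%). All events here means 318614 with a call for HOM, where the fit with its PSI limit tested 22234. Such events need not have an intermediate PSI, while members had to differ by 10 points. The shares are thus not of like events, and that of Rbm38KO also lay above its base.

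Stage itself changed many members. In Rbm38KO, 199 of 460 members tested differed between DIV7 and ESC (limma, 30.2% of all events tested were called), 104 higher and 95 lower at DIV7. Of the members that were higher in HOM 52 rose and 65 fell, and of those that were lower 52 rose and 30 fell. Between EB8 and DIV7 (20.2% of all events called), 34 of the former rose and 72 fell, with a median of -5.73 points over those tested, and 37 of the latter rose and 24 fell, with a median of 2.12 points. In HET, whose libraries the rule did not use either, 24 of the former rose and 64 fell (16.3% of all events called), with a median of -5.06 points. In WT, whose EB8 libraries the rule used, 40 rose and 55 fell (18.9% of all events called), with a median of -0.875 points.

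Members were looked up in gene lists for splicing, neurons, cilia, chromatin and the cell cycle. In all, 422 of 10405 genes with enough reads had a member (4.06%). These shares are descriptions without a test, and the lists are short. Among 27 measured genes for recognition of the 3' splice site, Puf60, Tial1 and Poldip3 had a member (11.1%). Puf60 counts here, and among the 422 genes, only through its edited exon 5, so this share includes the edit itself. The 87-nt exon of Poldip3, an mRNA export and translation factor, was at 58.3 and 59.3% in WT, 29.8 and 37.8% in HOM, 51.3 and 50% in HET and 71.2 and 71.5% in mEx5 at DIV7 (adjusted p = 0.000159 for HOM against WT). Of 45 measured regulators of alternative splicing 4 had one (8.89%), Celf1, Elavl2, Hnrnpa2b1 and Hnrnph1. The 12-nt extension in Celf1 stood at 77.7 and 75.6% in HOM, 59.9 and 60.3% in Rbm38KO and 41.4 and 46.0% in mEx5 at EB8 (adjusted p = 0.00714 for mEx5 against Rbm38KO), and did not pass at DIV7 for HOM against WT (9.96 points, adjusted p = 0.1). Ift20 was the 1 member gene among 21 of cilia and intraflagellar transport (4.76%), Ank3, Shank3 and Mef2a were the 3 among 19 measured neuronal genes (15.8%), Kdm1a and Hdac7 the 2 among 15 chromatin genes (13.3%), and none of 12 cell cycle genes had a member.

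Ankyrin G (Ank3) and the histone deacetylase Hdac7 passed at DIV7. The 33-nt exon of Ank3 was at 33.4 and 36.3% in WT and 14.7 and 19.2% in HOM (adjusted p = 0.0117), and the 111-nt exon of Hdac7 at 6.06 and 6.04% against 34.4 and 25.4% (adjusted p = 0.0187). The exon of Kdm1a, a histone demethylase, fell short of the test (-10.0 points, adjusted p = 0.0789), as did the lower exon of Mef2a (-5.9 points, adjusted p = 0.555) and the intron of Shank3 (-6.32 points, adjusted p = 0.305), which was higher in HOM at ESC and EB8.

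The RNA levels of these lists were compared between HOM and WT by the FDR (under 0.05) of the authors' deposited table, with no minimum level for the listed genes. At ESC 763 of 13639 genes with at least 1 RPKM were higher in HOM and 951 lower. Of 21 cilia genes 1 was higher and 5 were lower, and of 32 neuronal genes 5 were higher and 5 lower. Splicing regulators (52) and chromatin genes (16) each had 2 higher and 2 lower, and 2 of 29 genes for 3' splice site recognition were higher. At EB8 156 of 14440 genes were higher and 835 lower. There 16 of the 32 neuronal genes were lower and none higher, beside neuron markers of which 6 of 7 were lower too. Splicing regulators had 2 higher and 7 lower, and cilia genes 2 lower. At DIV7 437 of 14640 genes were higher and 563 lower. There 4 cilia genes and 1 splicing regulator were lower, and 1 neuronal and 1 chromatin gene were higher. The lists not named at a stage had no gene that passed.

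RNA levels of the member genes passed the authors' test at shares near those of all genes. At DIV7, 22 of 409 member genes with at least 1 RPKM in either group passed an FDR of 0.05 in the authors' deposited table (5.38%), 10 higher and 12 lower, against 6.83% of 14640 genes. At ESC the shares were 12.8% and 12.6%, and at EB8 5.1% and 6.86%. The median log2 fold change of the member genes was between -0.02 and 0.04 at the 3 stages. Genes whose lower coding exon is not a multiple of 3 had a median of -0.03, 0.02 and -0.04. Those whose exon is a multiple of 3 had -0.02, 0.04 and -0.07. The shares that passed were 11.1%, 9.52% and 8.2% of the former (63, 63 and 61 genes). Of the latter (72 genes) they were 5.56%, 4.17% and 1.39%. These differences were not tested.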

How the data were processed

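PolyA RNA of 30 libraries was prepared with a stranded mRNA kit, per the labels' protocols. The deposited splicing table gives PSI in percent per event and library from vast-tools, named by the authors in the table's title, with read counts in a quality string, per the file headers. The build was mm10, and Salmon 0.14.1 and edgeR are named for the study, per the submitters' processing notes. Expression was used as the authors deposited it: RPKM per group, log2 fold changes and FDR (adjusted p-value), per the file headers. TRUE or FALSE splicing calls at DIV7 are the authors' own, per the file headers.

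The members and lists were chosen with earlier results of these data known. Inclusion and exclusion reads gave log2((inclusion + 1)/(exclusion + 1)), fitted in limma 3.58.1 (R 4.3.3) across all events with at least 10 reads in each of the 10 libraries of a stage and a mean PSI of 5 to 95%, with group means, weights from sampling and between-replicate variance, robust moderation and Benjamini-Hochberg adjustment. Every adjusted p is from this fit. A call needs an adjusted p under 0.05 and 10 points of PSI. The stage fit used all 30 libraries. The fit was tested on simulated reads whose spread between libraries was drawn as the weights assume, so this does not check the weighting. Genes were named by rule: Puf60, the 8 largest called DIV7 differences per direction, the 3 largest ESC and EB8 differences per type and direction, up to 4 called per comparison of HET, mEx5 and Rbm38KO, reversals at DIV7, and members of the gene lists. Acceptors shown belong to the 3 coding exons per direction with the largest ESC and EB8 differences among those readable. Exons on a chromosome that is not named here were left out of this choice. The 170-nt exon of Foxp1 and the choice of extensions printed came after their values were seen. Alternatives changed weights, reads added, filters, thresholds, the rule and libraries. Spliced reads per library ranged from 23204150 to 38571969. Sequence came from GENCODE vM21 transcripts (GRCm38), without a genome. One member that the rule names, and the sequence of the edited exon, are not reported here.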

Additional observations from a re-analysis of the deposited data

Results flagged for a closer look

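In 3 events every HOM library lay on one side of WT at EB8 and on the other side at DIV7. The difference between the stages was not tested. At DIV7 none of the 3 was called in the limma fit. The 57-nt exon of Eme1, part of a structure-specific DNA nuclease, was higher in HOM at ESC (24.3 and 30.3% against 15.9 and 17.4%) and at EB8 (71.2 and 74.7% against 56.9 and 62%). At DIV7 it was at 53.9 and 52.3% in HOM and 65.5 and 88.5% in WT, a difference of -23.9 points (adjusted p = 0.335).

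The acceptor extension in Trerf1, a transcriptional regulator, was at 69.0 and 56.6% in HOM and 48.5 and 40.0% in WT at EB8. At DIV7 it was at 45.9 and 42.2% against 47.4 and 61.9%, a difference of -10.6 points (adjusted p = 0.522). The intron of Ak4, a mitochondrial adenylate kinase, was retained in 50 and 62.2% of HOM and 37.5 and 32.1% of WT transcripts at EB8, and in 26.3 and 23.1% against 39.1 and 33.3% at DIV7, a difference of -11.5 points. The lowest of the 30 libraries held 4 reads for it, and it was not tested at DIV7.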

How the results depend on the processing

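Counts of called members depended on how libraries were weighted. The direction of the calls turned in HET against Rbm38KO at EB8. For HOM against WT at DIV7 (81 called) the count was 0 with equal weights, 3 with no limit on PSI, 53 for members chosen at 15 points, and 46 to 66 when 1 library of either group was left out. A lone library was then taken to vary like the other groups. With 0.5 reads added, 20 reads as minimum, 15 points to call, 50 reads in the rule, 1 event per gene or Rbm38KO as control it was 82, 80, 64, 60, 69 and 76. The limit of PSI judged without HOM libraries, which gave 70, was chosen after seeing the data. The count of members at least 10 points apart without overlap (177) was 110 at 15 points, 90 for members chosen at 15 points and 190 to 216 with 1 library left out, where single libraries overlap less often.

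For HET against Rbm38KO at EB8 (1 called) the count was 0 with equal weights, 0 with no limit on PSI, 0 for members chosen at 15 points and 0 to 5 with 1 library left out. The 1 call is opposite to the members' direction, while without HET replicate B 3 of 5 lie in it and 2 opposite. For mEx5 against Rbm38KO at EB8 (24 called) it was 0 with equal weights, 0 with no limit on PSI, 12 for members chosen at 15 points and 6 to 25 with 1 library left out. At DIV7 (4 called) it was 0, 0 and 1 to 3 for the first, second and last of these. The stage change in Rbm38KO (199) gave 174 to 182 with 1 library left out, 194 with equal weights and 208 in HET.

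The labels give the same letters, A and B, to every group. Over all events tested, deviations of libraries that share a letter correlated between -0.06 and 0.13 within a stage. The letters were therefore not taken to pair samples. Medians of the 81 higher retained introns at ESC were nevertheless higher in library B of each line. In libraries A and B they were 15.3 and 16.8% in WT, 26.2 and 38.7% in HOM and 19.4 and 28.9% in HET. They were 16.1 and 26.5% in mEx5 and 19.2 and 23.8% in Rbm38KO. Library B of HET and of mEx5 thus lay above library A of HOM. With the letter as a replicate block, 83 members were called for HOM against WT at DIV7, 79 of them shared with the fit without it, 1 for mEx5 against Rbm38KO at ESC in place of 0, 4 for HET against Rbm38KO at EB8 in place of 1 (2 in the members' direction and 2 opposite), and 201 for the stage change. With 2 libraries per group, the events with few reads are the ones whose differences could least be tested.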

Other observations

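Retained introns that were higher in HOM also changed with stage in Rbm38KO, whose libraries the rule did not use. Between ESC and EB8 (15.3% of all events called), 13 of 74 tested introns rose and 2 fell, with a median of 7.21 points. From EB8 to DIV7, 6 rose and 16 fell, with a median of -5.53 points. Cassette exons that were higher in HOM changed in both directions from EB8 to DIV7, with 44 of 120 falling, 23 rising and a median of -7.01 points. In HET, which the rule did not use, 5 of the 74 introns rose and 15 fell from EB8 to DIV7, with a median of -2.85 points. In WT, whose EB8 libraries the rule used, the introns went the other way: 13 rose and 6 fell, with a median of 3.74 points. The difference between the lines was not tested.

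The other members that lay at least 10 points in the opposite direction at DIV7 were exons of Ptpn4 (-33.3 points at ESC, -12.2 at EB8 and 12.9 at DIV7), Mylpf (10.4 at DIV7), Lrp8os2 (22.4 at DIV7) and Itpr1 (27.9 at DIV7), and an intron of Pcgf2 (-13.0 at DIV7). The lowest of the 30 libraries held 20 reads for Ptpn4, 8 for Mylpf, 2 for Lrp8os2, 1 for Itpr1 and 37 for Pcgf2.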
